A study of Mus musculus with 20 samples.

Results

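The genes described here are 10 enzymes that handle threonine, glycine and methionine and the one-carbon units that pass between them. They were chosen by name from the gene table of 35204 genes, with Tha1 and Gnmt at the centre because of their levels in these same 4 groups. Their differences between groups are therefore given as a description. Calls among them are counted only beside the share of all genes, and nothing is read from those counts. All 10 were present in the table. Of these, 9 had at least 0.5 CPM (counts scaled to a common library size) in at least 1 mouse and entered the fit over 16306 genes, and Tdh did not.

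The study took RNA from a short piece of ileum near the cecum of 20 female C57Bl6 mice, with 5 mice in each group. According to the methods of the study they were 7 weeks old when the diets began, and the mice without antibiotics were specific pathogen-free. Mice received an amino acid diet with tryptophan (CD) or the same diet without it (TDD) for 3 weeks. By the listed ingredients the diets held the same amounts of threonine, glycine, serine, methionine and choline. The study reports strong weight loss on TDD, which was far milder in mice given antibiotics. Its text gives no food intake, so the amounts eaten are not known, and the part of weight loss in the levels below was not tested. The other pair of groups, CD+ABX and TDD+ABX, had the same diets while drinking ampicillin, vancomycin, gentamycin, metronidazole and neomycin in water with sucrose. The question put to these samples is how the diet alters the ileum with and without an intact microbiota.

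Threonine aldolase, the product of Tha1, splits threonine into glycine and acetaldehyde, and Tdh begins the other route from threonine to glycine in mitochondria. Serine hydroxymethyltransferases (Shmt1 in the cytosol, Shmt2 in mitochondria) convert serine and glycine into each other and load or unload a one-carbon unit on folate, which Mthfd2 oxidises further in mitochondria. In the methionine cycle, Mat2a makes S-adenosylmethionine, Gnmt spends it by methylating glycine to sarcosine, Ahcy cleaves the remaining S-adenosylhomocysteine, Bhmt returns homocysteine to methionine with betaine as the donor, and Cbs draws homocysteine away towards cysteine. Gnmt and Bhmt are known above all as abundant enzymes of liver.

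Total estimated counts per mouse ranged from 36676963 to 58662617. Some libraries held transcripts of other organs. The summed level of 4 liver markers (Alb, Fga, Fgb and Ahsg) was 13.6 to 18.3 CPM in TDD mice 4 and 5 and CD+ABX mice 1 and 2, and at most 0.220 CPM in the other 16 mice. The summed level of 4 pancreatic acinar markers (Cpa1, Pnlip, Ctrb1 and Cela2a) was 125.0 CPM in CD mouse 5 and at most 0.771 CPM in the other 19. The sum of 4 B cell markers ran from 1.70 to 114.3 CPM. Of the markers for the ileum itself, Fabp6 was at 0.238 to 3.91 CPM in the 10 mice without ABX and 2.65 to 144.3 CPM in the 10 with ABX, and Slc10a2 at 1.38 to 8.80 and 13.2 to 86.1 CPM. Gata4, which marks the upper small intestine and is low in distal ileum, was at 75.1 to 118.3 CPM in every mouse. These levels differ from those of distal ileum. The position of the pieces along the intestine, and whether it differed with ABX, was not tested. Results that rest on the 4 mice with liver transcripts are therefore given with and without them. In whole tissue, fewer cells of a type and less RNA per cell cannot be told apart.

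All 10 genes lie on the minus strand in GENCODE M21 (GRCm38). Tha1 is at chr11:117867952-117873481, Gnmt at chr17:46725664-46729168, Bhmt at chr13:93616675-93637961, Mthfd2 at chr6:83305691-83325908 and Shmt2 at chr10:127517123-127522444. RefSeq promoter windows were at hand for 9 of them (GRCm38.p6; that of Tdh was not used here). Over the 250 bases before the start, the longest run of letters that any of the 36 pairs of windows shared was 12 bases long and belonged to Tha1 and Shmt2, and the longest in any other pair was 10 bases. The windows of these 2 genes are shown with that run in capitals (no capitals in Gnmt), on the strand of the gene and 5′ to 3′, and that of Gnmt beside them because it is named with Tha1. This run was noted after the windows were read. On either strand it was found in 83 of 32851 promoter windows in RefSeq (0.253%), and its presence is a description of the letters only.
Tha1, chr11:117873527-117873776, minus strand: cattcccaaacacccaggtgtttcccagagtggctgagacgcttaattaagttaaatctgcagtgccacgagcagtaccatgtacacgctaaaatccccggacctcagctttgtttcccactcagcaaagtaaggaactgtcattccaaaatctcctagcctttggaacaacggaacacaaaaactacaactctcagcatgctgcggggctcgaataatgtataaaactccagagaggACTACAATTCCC
Shmt2, chr10:127522445-127522694, minus strand: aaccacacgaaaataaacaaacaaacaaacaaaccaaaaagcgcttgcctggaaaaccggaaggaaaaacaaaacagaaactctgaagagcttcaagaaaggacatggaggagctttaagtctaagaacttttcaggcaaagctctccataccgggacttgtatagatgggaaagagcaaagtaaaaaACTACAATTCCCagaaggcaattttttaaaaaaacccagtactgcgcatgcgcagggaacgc
Gnmt, chr17:46729166-46729415, minus strand: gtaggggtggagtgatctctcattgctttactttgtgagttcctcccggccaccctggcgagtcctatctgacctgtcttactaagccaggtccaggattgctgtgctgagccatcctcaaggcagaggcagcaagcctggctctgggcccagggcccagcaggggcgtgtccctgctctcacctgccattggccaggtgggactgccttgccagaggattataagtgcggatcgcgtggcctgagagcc
In Tha1 the run occupied positions -12 to -1 from the RefSeq start, and in Shmt2 positions -62 to -51. Windows of 300 bases, which add 50 bases after the start, were also searched on both strands for the E-box CACGTG, the D-box TTATGTAA or TTACGTAA, and the ATF4 element TGATGNAA. These were present in 7.15%, 1.06% and 3.97% of all windows. Among the 9 enzyme genes, 1 match was found, an E-box 229 bases before the start of Cbs.

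Compared per transcript length (TPM, a unit that corrects for transcript length and library size, summed over the transcripts of a gene), the enzymes fell into abundant and scarce ones. In CD mice, Ahcy stood at 89.1 ± 9.07 TPM (SD, n = 5), followed by Mat2a at 32.9 ± 6.33, Shmt1 at 28.1 ± 6.02, Shmt2 at 18.5 ± 3.97, Tha1 at 14.4 ± 2.35 and Mthfd2 at 9.72 ± 2.72. Cbs at 1.06 ± 0.522, Gnmt at 0.526 ± 0.205 and Bhmt at 0.168 ± 0.0254 TPM were scarce, and Tdh averaged 0.0417 TPM. Neighbours from Mat2a to Mthfd2 overlapped from mouse to mouse, as did Cbs and Gnmt, whereas Ahcy lay above all others. The order was kept in CD+ABX and TDD+ABX mice and differed in TDD mice, where Tha1 at 38.5 ± 8.79 TPM (SD, n = 5) took the place after Ahcy and overlapped Mat2a at 33.6 ± 3.83 TPM.

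**Figure D1:**
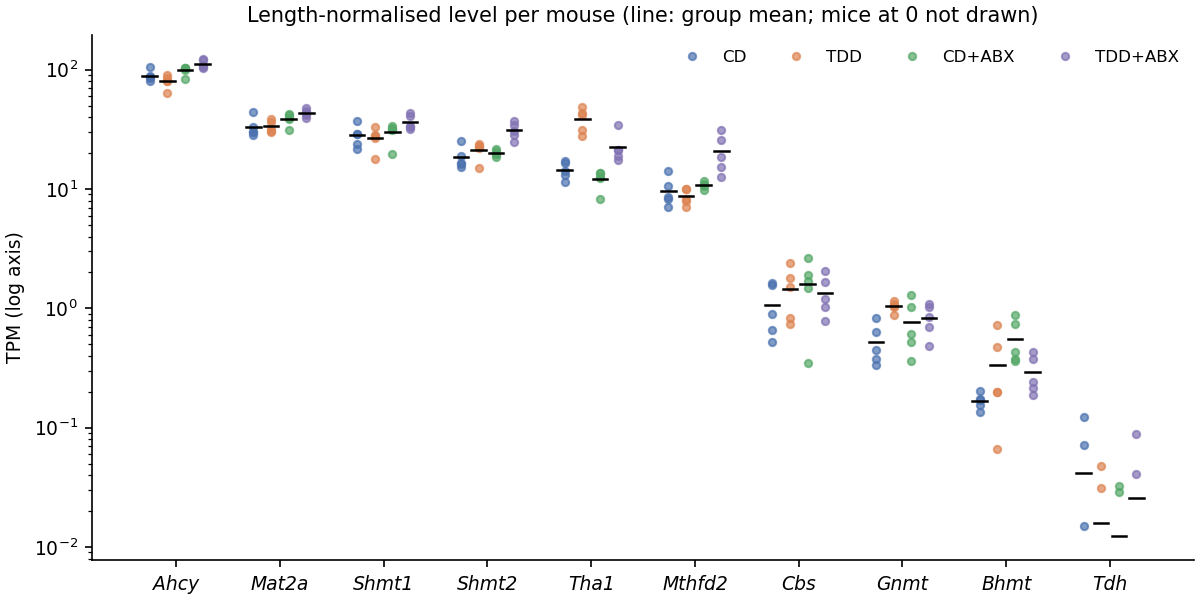
Level of each of the 10 enzyme genes in TPM (log axis) in the 20 mice, ordered by the mean in CD mice, with 1 point per mouse and a black line at the group mean. Ahcy is highest in each group, with a mean of 89.1 TPM in CD mice, and Tha1 moves from 14.4 TPM in CD to 38.5 TPM in TDD mice.

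Tha1 was higher on TDD than on CD both without and with ABX. It was at 20.3, 17.3, 20.4, 18.9 and 15.1 CPM in the 5 CD mice and at 71.2, 40.1, 34.9, 59.9 and 56.0 CPM in the 5 TDD mice. With ABX it was at 15.7, 15.2, 17.2, 10.6 and 19.3 CPM on CD and at 23.6, 27.2, 23.5, 42.1 and 24.9 CPM on TDD. On either background every TDD mouse lay above every CD mouse. The fitted log2 fold change from CD to TDD was 1.51 (SE 0.20, 2.85-fold) without ABX and 0.86 (SE 0.20, 1.81-fold) with ABX. The difference of these effects, with ABX minus without, was -0.66 (SE 0.28) on the log2 scale. Between the TDD groups Tha1 was lower with ABX, at -0.89 (SE 0.20), although TDD+ABX mouse 4 at 42.1 CPM lay above 2 TDD mice. Without the 4 mice that held liver transcripts the diet values were 1.40 and 0.84. The protein-coding form Tha1-201 held 54.4% ± 2.25 of the TPM of the gene in CD mice and 52.4% ± 3.49 in TDD mice (SD, n = 5), and 51.9% ± 3.28 and 53.1% ± 3.72 with ABX.

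**Figure D2:**
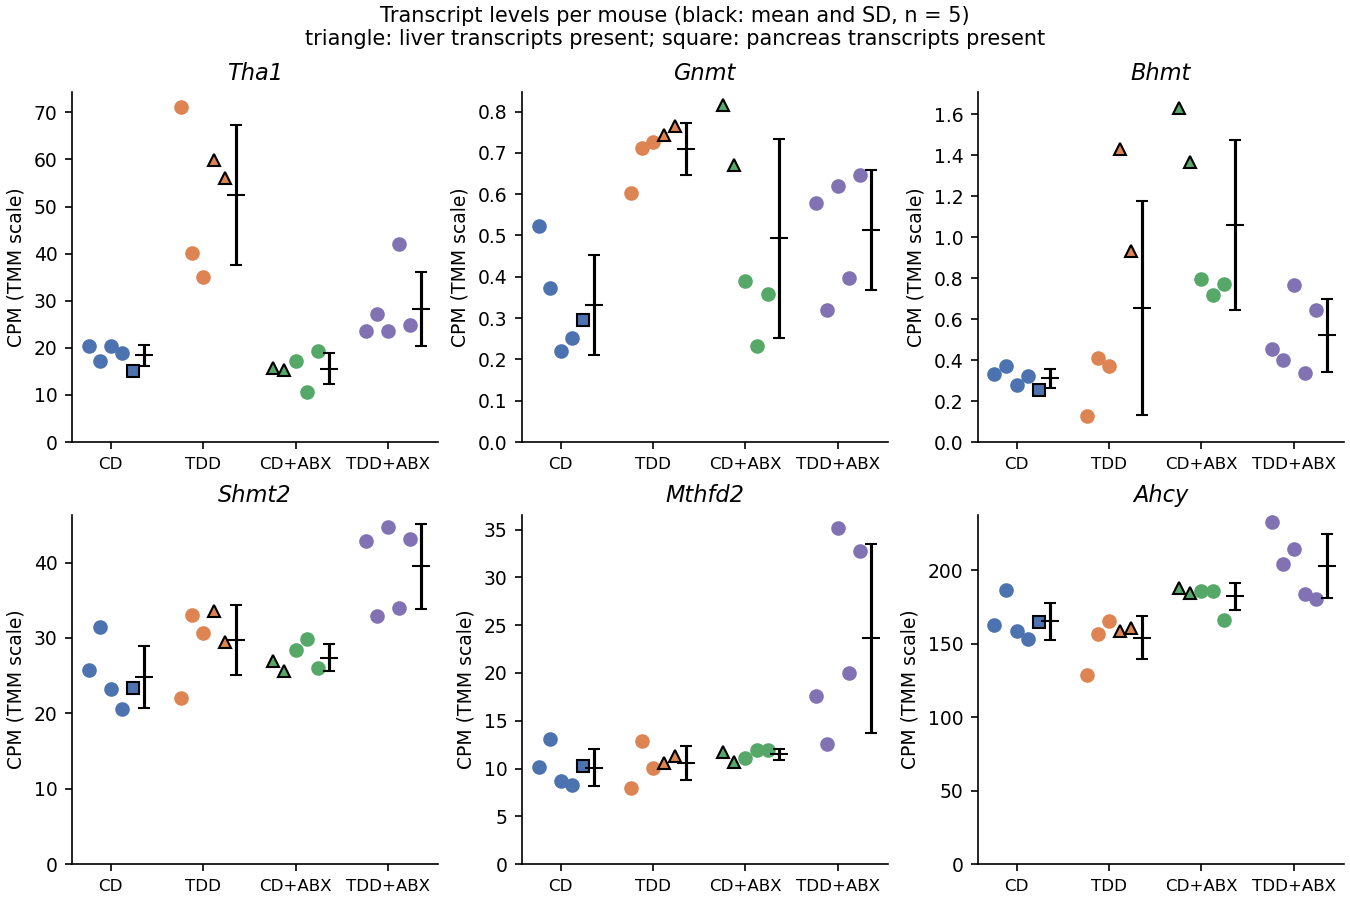
CPM per mouse for 6 of the enzyme genes, with the mean and SD of each group (n = 5) in black, triangles for the 4 mice with liver transcripts and a square for the mouse with pancreatic transcripts. Tha1 lies at 34.9 CPM or more in TDD mice against at most 20.4 CPM in CD mice, and the 4 triangles are the 4 highest values of Bhmt.

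The other entry from threonine was barely detected. Tdh had 0 to 2 counts in each of the 20 mice, under the limit of 3 counts that a count of 0 allows, so no fold change is given. Gcat, which completes the route that Tdh begins, was measured at 38.5 ± 6.55 CPM in CD and 32.5 ± 2.19 CPM in TDD mice (SD, n = 5), a log2 fold change of -0.24 that did not pass the test (q = 0.0801, where q is the p of edgeR's quasi-likelihood fit after Benjamini-Hochberg adjustment over all genes tested). Gcat was singled out for this route after its values were seen.

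Mthfd2 and Shmt2 had their highest group means in TDD+ABX mice, as did Shmt1, Mat2a, Ahcy and, in CPM but not in TPM, Cbs. Mthfd2 was at 10.1, 13.1, 8.66, 8.31 and 10.2 CPM in CD mice and at 8.01, 12.9, 10.03, 10.6 and 11.3 CPM in TDD mice. It was at 11.7, 10.7, 11.1, 12.0 and 12.0 CPM in CD+ABX mice and at 17.6, 12.6, 35.2, 20.02 and 32.8 CPM in TDD+ABX mice. The diets overlapped without ABX and did not overlap with ABX, where the TDD+ABX mice also spread widely among themselves, with a coefficient of variation of 41.7% against 4.98% in CD+ABX mice. The log2 fold change from CD to TDD was 0.07 (SE 0.22) without ABX and 1.04 (SE 0.22) with ABX, and the difference of these effects was 0.97 (SE 0.30). Between the TDD groups Mthfd2 was higher with ABX by 1.16 (SE 0.22), with TDD+ABX mouse 2 at 12.6 CPM below the highest TDD mouse.

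Shmt2, its partner in mitochondria, was at 26.9, 25.6, 28.5, 29.9 and 26.1 CPM in CD+ABX mice and at 42.9, 32.9, 44.8, 34.0 and 43.1 CPM in TDD+ABX mice. These groups did not overlap, and the log2 fold change was 0.53 (SE 0.12). Without ABX, Shmt2 was at 25.7, 31.5, 23.2, 20.6 and 23.4 CPM in CD mice and at 22.0, 33.1, 30.7, 33.6 and 29.5 CPM in TDD mice, with a log2 fold change of 0.26 (SE 0.12) and overlapping mice. Shmt1, the cytosolic enzyme, averaged 34.5 ± 5.36 CPM in CD and 32.9 ± 6.79 CPM in TDD mice, then 36.6 ± 6.90 CPM in CD+ABX and 44.0 ± 6.56 CPM in TDD+ABX mice (SD, n = 5). Its groups overlapped in all 4 comparisons.

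Of the enzymes that spend and recover S-adenosylmethionine, Gnmt was higher in TDD than in CD mice. It was at 0.524, 0.372, 0.220, 0.252 and 0.295 CPM in CD mice and at 0.602, 0.711, 0.725, 0.743 and 0.765 CPM in TDD mice, without overlap. With ABX it was at 0.816, 0.671, 0.389, 0.234 and 0.358 CPM on CD and at 0.579, 0.320, 0.620, 0.398 and 0.646 CPM on TDD, which overlapped. These values rested on 11 to 45 counts per mouse. The log2 fold change from CD to TDD was 1.10 (SE 0.31) without ABX and 0.06 (SE 0.30) with ABX, a difference of -1.04 (SE 0.43). The 2 highest CD+ABX values were those of mice 1 and 2, which held liver transcripts, and without the 4 such mice the diet values were 1.03 and 0.64 and their difference was -0.40. The TDD mice without liver transcripts, at 0.602 to 0.725 CPM, still lay above all CD mice.

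Bhmt was highest in the mice with liver transcripts. It was at 0.331, 0.372, 0.279, 0.321 and 0.253 CPM in CD mice and at 0.126, 0.413, 0.373, 1.43 and 0.935 CPM in TDD mice. With ABX it was at 1.63, 1.37, 0.799, 0.720 and 0.773 CPM on CD and at 0.455, 0.400, 0.765, 0.338 and 0.646 CPM on TDD, from 5 to 74 counts per mouse over all groups. The 4 mice with liver transcripts had the 4 highest values, 0.935 CPM or more against at most 0.799 CPM in the other 16. With all mice, the log2 fold change from CD to TDD was 1.07 (SE 0.45) without ABX and -1.02 (SE 0.42) with ABX. Without TDD mouse 4 alone the first of these was 0.60, and without all 4 mice they were -0.03 and -0.56. CD+ABX mice lay above CD mice, by 1.76 (SE 0.44) on the log2 scale with all mice and by 1.31 without the 4, and the 3 remaining CD+ABX mice at 0.720 to 0.799 CPM did not overlap the CD mice. The part of liver transcripts in the levels of Gnmt, beyond the values without those mice, was not tested.

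**Figure D3:**
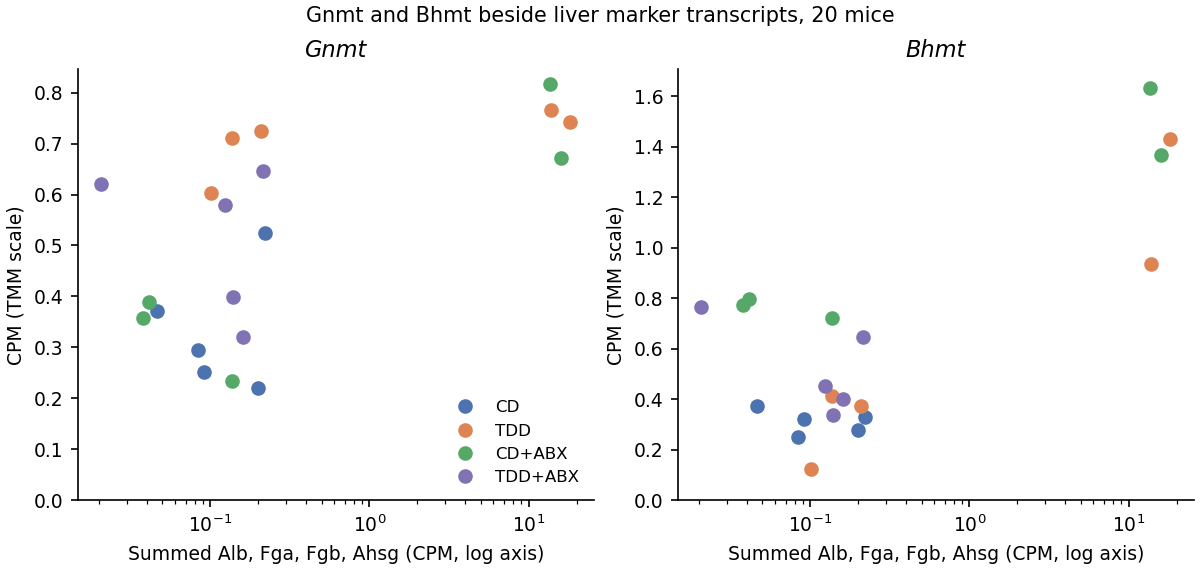
CPM of Gnmt and Bhmt in the 20 mice against the summed CPM of 4 liver markers (log axis), coloured by group. The 4 mice at 13.6 to 18.3 CPM of liver markers have Bhmt at 0.935 CPM or more, whereas Gnmt in them (0.671 to 0.816 CPM) overlaps other mice, whose highest value is 0.725 CPM.

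The 3 remaining enzymes of the methionine cycle and its exit differed less. Ahcy was at 129, 157, 166, 158 and 161 CPM in TDD mice and at 233, 204, 214, 184 and 180 CPM in TDD+ABX mice, without overlap, and the log2 fold change was 0.40 (SE 0.08). In the other 3 comparisons its log2 fold change lay between -0.10 and 0.16 and the groups overlapped. For Mat2a it lay between 0.09 and 0.26 in all 4 comparisons, with overlap in each. The deposited gene count of Mat2a was 2 times the sum of its transcripts in every mouse, so its CPM is doubled while its fold changes and TPM are not affected. Cbs, at 31 to 102 counts per mouse, lay between -0.18 and 0.25 with all mice and between -0.51 and 0.59 without the 4 mice with liver transcripts, and its highest value, 2.15 CPM, was in CD mouse 5, the mouse with pancreatic transcripts.

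**Figure D4:**
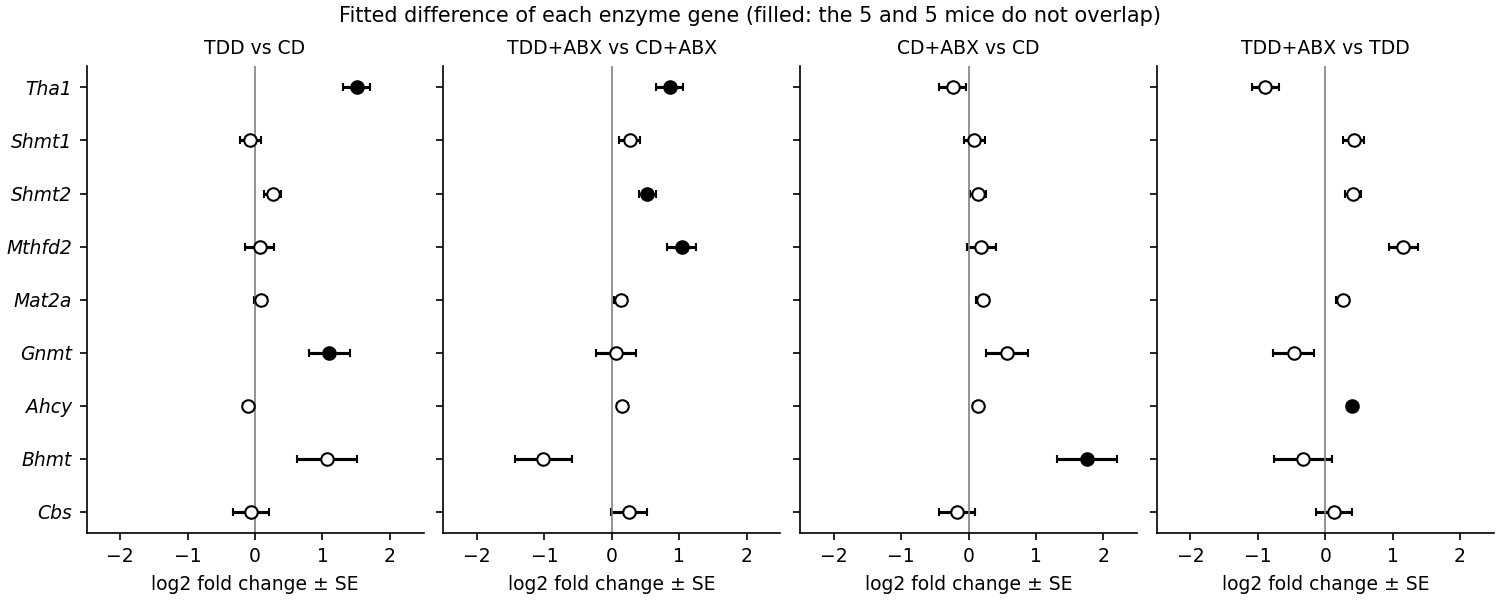
Fitted log2 fold change and standard error of the 9 enzyme genes that entered the fit, in the 4 comparisons, with filled points where the 5 and 5 mice do not overlap. Tha1 is to the right with TDD on either background (1.51 and 0.86), Gnmt without ABX (1.10) and Mthfd2 and Shmt2 with ABX (1.04 and 0.53).

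Against the whole table, at an adjusted p (q) under 0.05 and at least a 2-fold change, 2 of the 9 genes (Tha1 and Gnmt) were called from CD to TDD, where 1.83% of all genes tested were called. With ABX it was 1 gene (Mthfd2), against 0.307% of all genes. From CD to CD+ABX it was 1 gene (Bhmt), against 2.25%, and from TDD to TDD+ABX 1 gene (Mthfd2), against 1.63%. None of the 9 was called for the difference of the diet effects, against 0.0245% of all genes. Groups did not overlap for 2, 3, 1 and 1 of the 9 in these 4 comparisons, and for 9.58%, 4.78%, 9.74% and 11% of all genes. Since these contrasts chose the genes, nothing is read from these counts. The comparisons also share groups with each other.

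What the choice did not use is how the enzymes varied among mice of the same group. Over 20 mice with the group means removed, the 45 pairs of the 10 genes were tested on log2(CPM + 0.5), with two-sided permutation tests that shuffled mice within groups (100000 resamples) and Benjamini-Hochberg adjustment over the 45 pairs. The pairs with Tdh, which was barely detected, could show little but were counted in the adjustment. An adjustment over the fitted genes alone was not made, so whether a pair with an adjusted p near 0.05 passes depends on this choice. Pearson's r passed in 4 pairs and Spearman's rho in these and 1 more, Mat2a and Ahcy. How often pairs of other genes pass in these mice was not measured, so whether such relations are particular to these enzymes was not tested. Mice of a group also differed in tissue content and TMM scaling factor. Among CD mice, 5 smooth muscle markers summed to 439.1 to 2312 CPM and 6 enterocyte markers to 15540 to 29080 CPM. CD mouse 2 (factor 1.148) had the highest Mat2a, Shmt1, Shmt2, Mthfd2 and Ahcy of its group. CD+ABX mouse 5 (0.904) had the lowest Mat2a, Shmt1, Ahcy and Cbs and the highest Tha1. The part of composition in these relations was not tested. Shmt1 and Ahcy went together most closely, with r = 0.868 (p = 5e-05, adjusted p = 0.00112, permutation test) and Spearman's rho = 0.847 (p = 8e-05, adjusted p = 0.0018). Shmt2 and Mthfd2, which act in sequence in mitochondria, had r = 0.709 (p = 0.00204, adjusted p = 0.0306) and rho = 0.731 (p = 0.00288, adjusted p = 0.0339). Mat2a and Shmt1 had r = 0.626 (p = 0.00374, adjusted p = 0.0421) and rho = 0.671 (p = 0.00377, adjusted p = 0.0339). Without the 2 mice farthest from the median of the first gene of each pair, these r were 0.827, 0.669 and 0.640. Mat2a and Ahcy had rho = 0.675 (p = 0.00356, adjusted p = 0.0339, permutation test) and r = 0.613 (p = 0.00961, adjusted p = 0.0541), and over the 16 mice without liver transcripts r was 0.672 (adjusted p = 0.0389).

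Gnmt and Bhmt also passed, with r = 0.595 (p = 5e-05, adjusted p = 0.00112, permutation test) and rho = 0.687 (p = 8e-05, adjusted p = 0.0018), and r was 0.507 without the 2 farthest mice. Over the 16 mice without liver transcripts r was 0.620 and no longer passed (p = 0.00994, adjusted p = 0.0542, permutation test), so the size of the relation was kept over fewer mice and its call was not. Shmt1 with Ahcy, Shmt2 with Mthfd2 and Mat2a with Shmt1 passed there too, with r = 0.884, 0.730 and 0.663 (adjusted p = 0.00495, 0.0389 and 0.0389). Bhmt with Shmt2 (r = 0.770) and Shmt1 with Shmt2 (r = 0.701) passed there as well (adjusted p = 0.0389 for each, permutation test). Over the 20 mice these pairs had r = 0.451 and 0.620 and did not pass (adjusted p = 0.18 and 0.0541, permutation test). Among the abundant enzymes, Tha1 had r = -0.197 to Mat2a and -0.295 to Mthfd2 (adjusted p = 0.532 and 0.481, permutation test). Its most negative r were -0.578 to Ahcy, -0.523 to Shmt2 and -0.512 to Shmt1, none of which passed (adjusted p = 0.0694, 0.101 and 0.145). Without the 4 mice these 3 values were -0.682, -0.643 and -0.720 (adjusted p = 0.059, 0.0594 and 0.0542, permutation test). Over the 15 mice without the pancreatic one too, r to Shmt2 was -0.692 and passed (adjusted p = 0.0482, permutation test), and those to Ahcy and Shmt1 were -0.701 and -0.718 (adjusted p = 0.0529 and 0.0532). Tha1 had no positive r with any of the other 9 genes over the 20 mice.

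**Figure D5:**
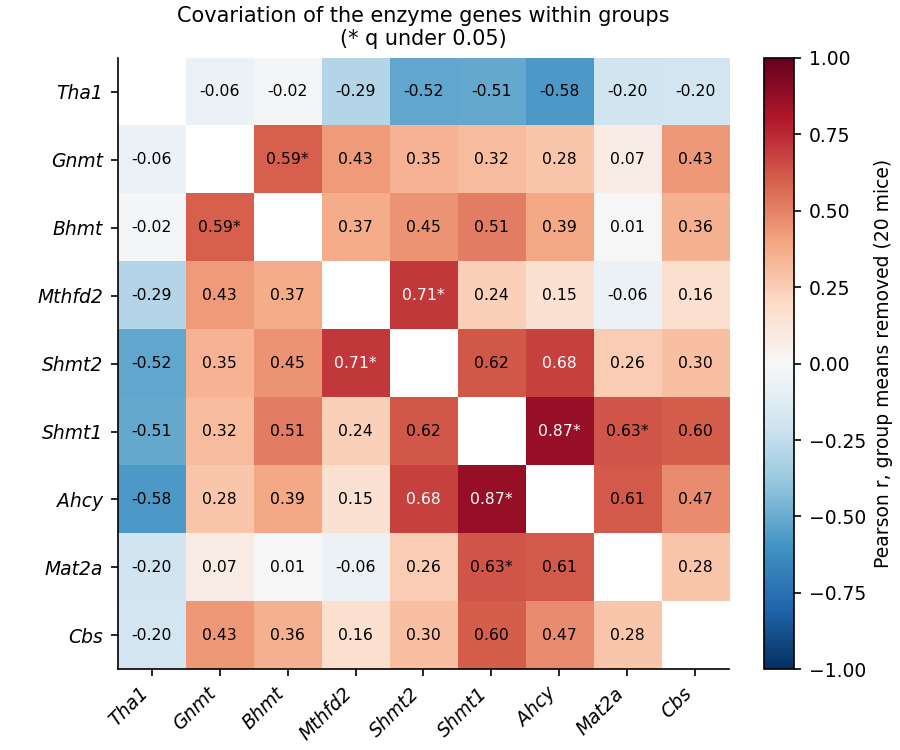
Pearson r between the 9 enzyme genes over 20 mice after the group means were removed, red for positive and blue for negative, with an asterisk where the adjusted p is under 0.05. The 4 marked pairs include Shmt1 with Ahcy (0.868) and Shmt2 with Mthfd2 (0.709), and the row of Tha1 holds no positive value.

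Over all 20 mice, group differences included, the genes most like Tha1 were Lsm14b (r = 0.938), Cirbp (0.937), Slc2a5 (0.928), Rab37 (0.926) and Cyth1 (0.925), of which Cirbp encodes a cold-inducible RNA-binding protein and Slc2a5 the intestinal fructose transporter. Slc2a5 averaged 112.8 ± 18.1 CPM in CD and 208.0 ± 26.0 CPM in TDD mice, and 91.8 ± 28.9 and 136.2 ± 16.3 CPM with ABX (SD, n = 5). The genes most like Gnmt reached lower values, with Csgalnact2 (r = 0.778), Uvssa (0.763), Cenpo (0.756), Nubpl (0.749) and Cd300lg (0.749). These r describe 20 mice in 4 groups and carry no p.

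A wider list of 67 genes of the same pathways was tested, of which 61 entered the fit. They comprised 20 tested folate carriers and folate enzymes, 15 enzymes of serine, glycine and threonine, 6 of choline, betaine and sarcosine, and 20 of methionine, S-adenosylmethionine and transsulfuration. From CD to TDD, 2 of the 61 were called at 2-fold, where 1.83% of all genes were called. At q under 0.05 alone, 8 passed, 6 higher and 2 lower, where 14.4% of all genes passed. That share was not split by direction, so nothing is read from the directions. The folate list had 4 genes up (Aldh1l2, Slc19a1, Aldh1l1 and Fpgs), the serine, glycine and threonine list 2 up (Psat1 and Psph) and 1 down (Gamt), the methionine list 1 down (Ethe1) and the choline list 0. Aldh1l1, Fpgs and Psph are named here after their values were seen.

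Aldh1l2, the mitochondrial enzyme that oxidises formyl-folate, rose from 1.92 ± 0.413 CPM in CD to 8.69 ± 4.82 CPM in TDD mice (SD, n = 5), a log2 fold change of 2.18 (SE 0.36, q = 0.00059). The TDD mice spread from 2.51 to 14.9 CPM and the lowest overlapped the CD mice. Psat1, an enzyme of serine synthesis, rose from 7.88 ± 2.18 to 17.2 ± 4.70 CPM (log2 fold change 1.13, SE 0.23, q = 0.00312). The lowest TDD mouse, at 10.6 CPM, lay below the highest CD mouse, at 11.3 CPM. Slc19a1, the reduced folate carrier, rose by 0.81 on the log2 scale (SE 0.13, q = 0.000619) with no overlap between the diets. Gamt, the last enzyme of creatine synthesis, fell by 0.65 (SE 0.14, q = 0.00395), and Ethe1, a mitochondrial sulfur dioxygenase, fell by 0.30 (SE 0.08, q = 0.0195).

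Without the 4 mice with liver transcripts, Aldh1l2, Psat1, Slc19a1 and Gamt still passed (q = 0.0097, 0.0329, 0.0158 and 0.0299) and Ethe1 did not, with a log2 fold change of -0.27 (q = 0.0974). Without TDD mouse 4 alone Ethe1 was also at -0.27 (q = 0.0537). Without the mouse with pancreatic transcripts as well, Psat1 and Gamt no longer passed (q = 0.0539 and 0.0664), on fewer mice and with log2 fold changes of 1.11 and -0.63. The summed B cell markers ran from 3.01 to 74.8 CPM in CD and from 2.74 to 114.3 CPM in TDD mice, and with their level as a term the log2 fold change of Psat1 was 0.96, under the 2-fold limit (q = 0.0157). The median log2 fold change of the 61 genes was -0.045, against 0.013 over all genes.

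With ABX, none of the 61 was called at 2-fold between the diets by edgeR, against 0.307% of all genes, and DESeq2 called 1, Aldh1l2. At an unadjusted p of edgeR under 0.05 there were 13. The share of all genes at that limit was not counted, so nothing is read from that number. Psat1 averaged 11.1 ± 1.31 CPM in CD+ABX and 21.5 ± 6.88 CPM in TDD+ABX mice (SD, n = 5), without overlap, and rose by 0.95 on the log2 scale (SE 0.23, q = 0.0403). Psph, the last enzyme of serine synthesis, rose by 0.40 (SE 0.10, q = 0.0403). These were the 2 genes with q under 0.05, where 1.64% of all genes passed, and both belong to the serine, glycine and threonine list. Leaving out 1 mouse ended the call in 9 of 20 fits for Psat1 and 10 of 20 for Psph, and neither passed without the 4 mice with liver transcripts (q = 0.147 and 0.0892), where the log2 fold changes were 0.92 and 0.44. Aldh1l2 was at 2.35 ± 0.520 CPM on CD+ABX and 5.70 ± 1.85 CPM on TDD+ABX, without overlap, and did not pass in edgeR (log2 fold change 1.28, SE 0.35, q = 0.0698).

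No gene of the 61 passed edgeR's test of the difference between the diet effects, against 0.0368% of all genes. At an unadjusted p of edgeR under 0.05 there were 4, and nothing is read from that number either. For Aldh1l2 that difference was -0.90 (SE 0.49, q = 0.623) and for Psat1 -0.18 (SE 0.32, q = 0.921). DESeq2 called 1 gene here, Mat1a, the liver counterpart of Mat2a, which had 0 to 54 counts per mouse. It reached 1.40 CPM in TDD and 1.19 CPM in CD+ABX mice, the groups that hold the 4 mice with liver transcripts, and at most 0.0842 CPM in CD and 0.0479 CPM in TDD+ABX mice. The part of liver transcripts in this call was not tested. With ABX, the median log2 fold change of the list from CD to TDD was 0.013, against -0.003 over all genes.

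Members of the list also differed between mice with and without ABX. From CD to CD+ABX, 2 of the 61 were called at 2-fold, where 2.25% of all genes were called. At q under 0.05, 13 passed, 9 higher and 4 lower, where 12.6% of all genes passed. The methionine list had 5 genes up and none down, and the folate list 2 up and 1 down. The serine, glycine and threonine list had 1 up and 2 down, and the choline list 1 up and 1 down. Shares of all genes by direction were not counted, so nothing is read from these directions. The 4 lower genes were Dao, Slc46a1, Pipox and Gatm. Dao, which oxidises D-amino acids and glycine, fell from 25.5 ± 9.88 CPM in CD to 7.98 ± 1.94 CPM in CD+ABX mice (SD, n = 5; log2 fold change -1.68, SE 0.31, q = 0.00201). Slc46a1, the proton-coupled folate carrier of the upper small intestine, fell from 66.4 ± 26.9 to 25.1 ± 3.58 CPM (log2 fold change -1.40, SE 0.32, q = 0.00815).

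Sardh, which demethylates the sarcosine that Gnmt makes, rose by 0.96 on the log2 scale (SE 0.19, q = 0.00258), and Pipox, which oxidises sarcosine and pipecolate, fell by 0.47 (SE 0.09, q = 0.00256). Suox, sulfite oxidase, rose by 0.65 (SE 0.19, q = 0.0306), and Srm, spermidine synthase, by 0.61 (SE 0.19, q = 0.0399). Without CD+ABX mouse 4 the value of Suox was 0.38 (q = 0.0744), and without CD mouse 3 that of Srm was 0.51 (q = 0.105). Leaving out 1 mouse ended these calls in 6 and 9 of 20 fits. Without the 4 mice with liver transcripts, Dao, Sardh, Pipox and Suox passed (q = 0.023, 0.0212, 0.0213 and 0.0125) and Slc46a1 and Srm did not (q = 0.071 and 0.114), with log2 fold changes of -1.34 and 0.61 there. The median log2 fold change of the list was 0.099, against -0.005 over all genes.

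From TDD to TDD+ABX, 2 of the 61 were called at 2-fold, where 1.63% of all genes were called. At q under 0.05, 15 passed, 10 higher and 5 lower, where 15.4% of all genes passed. The methionine list had 5 genes up and none down, and the folate list 3 up and 2 down. The serine, glycine and threonine list had 2 up and 2 down, and the choline list 1 down. As the share of all genes in each direction was not counted, nothing is read from these directions. The 5 lower genes were Dao, Slc46a1, Gatm, Pipox and Mtr, the last of which is named after its value was seen. Dao fell by 1.33 on the log2 scale (SE 0.30, q = 0.00849) and Slc46a1 by 1.14 (SE 0.32, q = 0.0241). Cth, which makes cysteine from the product of Cbs, rose from 50.9 ± 12.7 CPM in TDD to 91.2 ± 11.7 CPM in TDD+ABX mice (SD, n = 5; log2 fold change 0.84, SE 0.14, q = 0.000987) without overlap.

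Gamt rose by 0.74 on the log2 scale (SE 0.14, q = 0.00236), Suox rose by 0.60 (SE 0.19, q = 0.0408) and Gatm, the first enzyme of creatine synthesis, fell by 0.45 (SE 0.11, q = 0.0105). Leaving out 1 mouse ended the call of Suox in 8 of 20 fits and that of Slc46a1 in 4 (without TDD mouse 1 and TDD+ABX mice 1, 2 and 3). Without the 4 mice with liver transcripts, Cth and Gamt passed (q = 0.0118 and 0.0186), whereas Dao, Slc46a1, Gatm and Suox did not (q = 0.05, 0.0771, 0.0694 and 0.0647). The log2 fold changes of these 4 genes over the remaining 16 mice were -1.32, -1.22, -0.37 and 0.63. The ABX groups also had the higher Fabp6 and Slc10a2 levels and lower T cell markers, whose sum over 4 genes was 14.1 to 23.2 CPM with ABX and 24.3 to 76.5 CPM without. Their part in these differences was not tested. The median log2 fold change of the list was 0.096, against -0.028 over all genes.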

How the data were processed

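The authors enriched poly-A RNA, sequenced it on an Illumina NovaSeq instrument and quantified transcripts with kallisto 0.44.0 on GRCm38. They deposited estimated counts per gene, not normalized, for 20 mice, and per mouse a table of estimated counts and TPM for each transcript. Here the gene counts were rounded to whole numbers. Levels are CPM on the TMM scale, and TPM was summed over the transcripts of a gene.

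Groups were taken from the labels. The 4 groups were fitted together with edgeR 4.0.16 (quasi-likelihood test, robust, R 4.3.3) over genes with 0.5 CPM in at least 1 mouse, and calls needed q (Benjamini-Hochberg) under 0.05 and at least 2-fold, the thresholds of the study. The labels do not say whether mice shared cages, so p-values measure the spread between these mice. No pair of libraries in a group agreed within sampling noise (mean chi-square per gene 18.8 or more over 40 pairs). The test was checked on simulated counts. DESeq2 1.42.0, limma-voom (limma 3.58.1), other scalings and filters, a replicate block, and leaving out each mouse were alternatives. Those leaving out mice with liver or pancreatic transcripts (over 5 CPM), and the one with B cell marker level as a term, were added after the data were seen.

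The members, the wider lists and the tests were chosen with earlier results of these data known. The text names all 10 members, each other pathway gene called in any comparison, the 3 highest and 3 lowest of those with q under 0.05 in each, and the 5 genes most like Tha1 and like Gnmt. Coordinates are those of GENCODE M21 and promoter windows those of RefSeq.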

Additional observations from a re-analysis of the deposited data

Results flagged for a closer look

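Within groups of 5 mice, 36 sets of values of the 9 enzyme genes were examined for a mouse that stood apart (Dixon's ratio above 0.71, which chance gives in about 1 of 20 sets), and 6 held one. Tha1 was at 42.1 CPM in TDD+ABX mouse 4, where the other 4 mice lay between 23.5 and 27.2 CPM. Mat2a was at 167.4 CPM in CD mouse 2, above 116.5 to 125.4 CPM in the others. Shmt1 was at 24.6 CPM in CD+ABX mouse 5, below 37.2 to 41.6 CPM, and the same mouse had Ahcy at 166.3 CPM, below 184.4 to 188.0 CPM. Ahcy was at 128.7 CPM in TDD mouse 1, below 156.6 to 165.6 CPM. Cbs was at 1.76 CPM in TDD mouse 4, a mouse with liver transcripts, above 1.21 to 1.35 CPM.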

How the results depend on the processing

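The counts of other pathway genes called (2, 0, 2 and 2 of 61 from CD to TDD, from CD+ABX to TDD+ABX, from CD to CD+ABX and from TDD to TDD+ABX, and 0 for the difference of the diet effects) did not change with other scaling, limma-voom, the low-count limit met in 5 mice instead of 1, or the replicate block. The replicate block gave 2, 0, 2, 2 and 0, and same-numbered mice did not vary together (median r -0.029 over 30 pairs, 5 above 0.1). DESeq2 called 1 from CD+ABX to TDD+ABX and 1 for the difference (and 3 from TDD to TDD+ABX), and a fit of CD+ABX and TDD+ABX alone called 1. Without a filter, 1 was called from TDD to TDD+ABX. Without the fold limit the counts were 8, 2, 13 and 15. Leaving out 1 mouse gave 2 to 3, 0 to 2, 2 to 3 and 1 to 3, and 0 for the difference; the counts with ABX rose to 2 without TDD+ABX mouse 2 and to 1 without TDD mouse 1 or TDD+ABX mouse 4, and those from TDD to TDD+ABX fell to 1 without TDD+ABX mouse 1, 2 or 3. Without the 4 mice with liver transcripts, 1 was called from CD to CD+ABX and 0 from TDD to TDD+ABX. Without these and the mouse with pancreatic transcripts, 1 from CD to TDD, 1 from CD to CD+ABX and 0 from TDD to TDD+ABX, on fewer mice. With B cell level as a term, 1 was called from CD to TDD; the cause was not tested. Pairs of enzymes that varied together were 4 with log2(CPM + 2), 6 without the mice with liver transcripts and 7 without the pancreatic one too, among them Tha1 with Shmt2. Of the log2 fold changes of the 9 enzymes, 6 of 288 from CD to TDD and 8 of 288 with ABX moved by more than the spread between mice, and those that moved in any comparison were of Gnmt, Bhmt and Cbs. Without the mice with liver transcripts Bhmt changed sign from CD to TDD (-0.03) and from TDD to TDD+ABX (0.78). As a difference of log2(TPM + 1), which understates changes at low levels, Gnmt from CD to TDD was 0.43. Gnmt, Bhmt and Cbs have few counts, which limits the precision of their values.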

Other observations

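The transcript forms of some enzymes were measured as well. The form Gnmt-201 held 67.3% ± 11.9 of the TPM of Gnmt in CD, 73.8% ± 11.6 in TDD, 74.3% ± 9.01 in CD+ABX and 65.8% ± 19.8 in TDD+ABX mice (SD, n = 5). Bhmt-201 held 94.3% to 97.7% and Ahcy-201 97.6% to 98.6% as group means. Shmt2-201 held 58.3% to 63.5% and Mthfd2-201 60.8% to 69.8%, with SDs of 2.99 to 11.8 percentage points within groups. No test was made on these shares.

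The summed level of 6 proliferation markers averaged 492.1 ± 55.4 CPM in CD, 404.5 ± 75.0 CPM in TDD, 478.7 ± 87.0 CPM in CD+ABX and 505.6 ± 94.0 CPM in TDD+ABX mice (SD, n = 5). Of the 9 fitted enzymes, 6 (Shmt2, Mthfd2, Ahcy, Shmt1, Mat2a and Cbs) had their highest group mean in CPM in TDD+ABX mice as well. In TPM, Cbs was higher in CD+ABX mice (1.61) than in TDD+ABX mice (1.34). The share of all genes highest in TDD+ABX mice was not counted, and the part of proliferation in the levels of these enzymes was not tested.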
